A study of Mus musculus with 6 samples.

Results

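The 9 genes described here encode transcription factors that set or maintain the macrophage and microglial lineage: Spi1, Cebpa, Runx1, Fli1, Maf, Klf4, Mef2a, Mef2c and Smad3. They were taken by name from the 55487 genes counted in 6 bulk RNA-seq libraries of cultured mouse cortical microglia; the rule uses the names alone, but the set was proposed with earlier results of these data known. All cultures came from Nr1d1 fl/fl newborn pups, in which exons of the gene for REV-ERBα, a circadian nuclear receptor that represses transcription, are flanked by loxP sites, and all received 1.5 μM 4-hydroxytamoxifen (4-OHT) for 2 days according to the sample labels. The 3 Cre+ cultures carried CAG::CreERT2, a recombinase that 4-OHT activates, and the 3 Cre- cultures came from littermates without it. The CAG promoter is active in nearly all cell types, so the recombinase is not specific to microglia, which were shaken off mixed glial cultures. Because no culture had the recombinase without the floxed allele, an effect of Cre itself and an effect of the deletion cannot be told apart. GM-CSF, a myeloid growth factor, was present in those mixed cultures for both groups. The comparison asked what loss of REV-ERBα changed in the microglial transcriptome, here in the factors that give these cells their identity.

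Macrophage identity is built by a small set of DNA-binding proteins that open enhancers together. PU.1, the product of Spi1, is the factor without which macrophages and microglia do not form, and it binds beside C/EBP, RUNX and ETS partners. MAF, MEF2, KLF4 and SMAD3 act on top of that base in mature cells, where MEF2 factors and TGF-β signalling through SMAD3 are known for the microglial program of the brain. Microglia lose part of that program once they are placed in culture.

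Promoter sequence was examined because REV-ERBα binds DNA at the nuclear receptor motif AGGTCA preceded by A and T bases, and CLOCK and BMAL1, the activators of the same clock, bind the E-box CACGTG. RefSeq windows of the 250 bases before the transcription start (build GRCm38.p6) were found for 6 of the 9 genes, 9 windows in all. Both motifs were searched on both strands, with the core AGGTCA alone and without the A and T bases before it. The Cebpa window is shown because Cebpa was the 1 factor of the 9 that passed the test between groups, the Mef2c window because it was the 1 window with 2 copies of AGGTCA, and the Runx1 window as an example with an E-box. Capitals mark the motif matches, and the Cebpa window, at chr7:35119043-35119292 on the plus strand, has none. The Mef2c window is chr13:83573357-83573606 on the plus strand, upstream of a start inside the gene as annotated, and the Runx1 window is chr16:92826075-92826324 on the minus strand. The part of the Runx1 window nearest the start, with the E-box, lies inside the gene as annotated, which reaches 92826149.
Cebpa: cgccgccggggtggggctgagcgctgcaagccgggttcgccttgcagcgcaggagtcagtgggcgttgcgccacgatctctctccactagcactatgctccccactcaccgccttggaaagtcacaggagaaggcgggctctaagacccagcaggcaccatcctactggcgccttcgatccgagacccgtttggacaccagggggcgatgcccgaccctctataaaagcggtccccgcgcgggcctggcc
Mef2c: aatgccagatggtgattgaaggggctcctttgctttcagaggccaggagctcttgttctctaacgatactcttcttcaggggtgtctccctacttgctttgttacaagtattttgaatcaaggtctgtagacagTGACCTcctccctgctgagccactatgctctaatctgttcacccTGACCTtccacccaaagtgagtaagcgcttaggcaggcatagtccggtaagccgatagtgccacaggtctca
Runx1: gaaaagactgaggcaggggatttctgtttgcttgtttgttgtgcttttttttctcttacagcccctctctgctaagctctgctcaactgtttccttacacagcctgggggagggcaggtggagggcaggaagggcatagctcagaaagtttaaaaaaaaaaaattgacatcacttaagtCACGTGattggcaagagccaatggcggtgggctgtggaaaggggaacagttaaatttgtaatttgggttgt
AGGTCA was present in 2 of the 9 windows, both of Mef2c, where it read TGACCT on the strand of the gene, at positions -237 to -232 from the start in one window and at -116 to -111 and -72 to -67 in the window printed. Of 32851 windows of the same length over all genes, 14.0% held AGGTCA. The E-box was present at -71 to -66 in the printed Runx1 window and at -182 to -177 in the Klf4 window, against 6.02% of all windows. No window of these genes held GAGGAAGT, a PU.1 motif found in 2.44% of all windows, TTGCNNAA, a C/EBP motif found in 9.56%, or TGTGGT, a RUNX motif found in 14.0%. These matches describe letters in short windows and carry no measurement of binding.

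The libraries held 87545868 to 93942161 counts in the Cre- group and 93701215 to 110909129 in the Cre+ group, and 11429 genes were above the expression filter, set at over 1 CPM (read counts scaled to a common library size) in at least 4 libraries. Nr1d1 itself was low, at 2.35, 1.20 and 1.64 CPM in the Cre- and 1.00, 0.945 and 1.08 CPM in the Cre+ cultures, so that the groups did not overlap although the difference missed the threshold (log2 fold change -0.77, SE 0.25, edgeR adjusted p = 0.0945). Its counts cover the whole gene, whereas only some of its exons are floxed, so they do not measure how completely those exons were deleted. Of 12 microglia and macrophage markers 11 exceeded 1 CPM, and their summed level was 7420 to 7530 CPM in the Cre- and 7450 to 7670 CPM in the Cre+ cultures. P2ry12, a defining marker of microglia in the brain, was at 0.394 to 0.998 CPM across the 6 libraries, and Tmem119 at 1.82 to 3.49 CPM. Summed markers reached 42.1 to 47.9 CPM for astrocytes, 69.7 to 82.9 CPM for the oligodendrocyte lineage, 45.1 to 51.0 CPM for endothelial cells and 7.16 to 11.3 CPM for neutrophils, and stayed below 5 CPM for neurons, fibroblasts and mural cells, B and T cells, and mast cells. The most abundant markers of the first 4 of these cell types were Aldoc, Cspg4, Vwf and S100a8, in that order. Their highest library values were 33.6, 49.1, 28.4 and 10.9 CPM. Mean levels above 1 CPM were reached by 2 of 8 astrocyte, 2 of 8 oligodendrocyte lineage, 3 of 8 endothelial and 1 of 7 neutrophil markers. Beside those named, they included Aldh1l1 (9.8 to 13.5 CPM), Mbp (25.0 to 33.2 CPM) and Flt1 (18.8 to 26.1 CPM). Gfap, Olig2, Cldn5 and Ly6g, defining markers of the same 4 cell types in that order, were at most 0.395 CPM in any library. Whether the more abundant markers came from other cell types was not tested. Summed neutrophil, neuronal, fibroblast and mural, and mast cell markers were lower in every Cre+ than in every Cre- culture (neutrophils 7.16 to 8.50 against 9.18 to 11.3 CPM), and their part in the results below was not tested. More genes were detected in the Cre- libraries (32587 to 35166) than in the deeper Cre+ libraries (29941 to 30677).

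Per length, the factors covered a wide range of levels. Mean expression over the 6 libraries, as FPKM, which corrects for gene length and library size, was 23.8 for Spi1, 14.6 for Cebpa and 11.7 for Fli1. Mef2a followed at 2.30, Mef2c at 1.89, Runx1 at 1.72 and Maf at 1.13 FPKM, and Klf4 at 0.806 and Smad3 at 0.139 FPKM were the lowest. The ranges over the 6 libraries overlapped between Spi1 and Cebpa, Cebpa and Fli1, Mef2c and Runx1, and Maf and Klf4, so those neighbours were not separated by more than their spread. The ranges were apart between Fli1 (lowest library 11.0) and Mef2a (highest 2.53), between Runx1 and Maf, and between Klf4 and Smad3, and all but touched between Mef2a (lowest 2.10) and Mef2c (highest 2.09). The highest mean was 7.42 log2 units above the lowest.

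**Figure D1:**
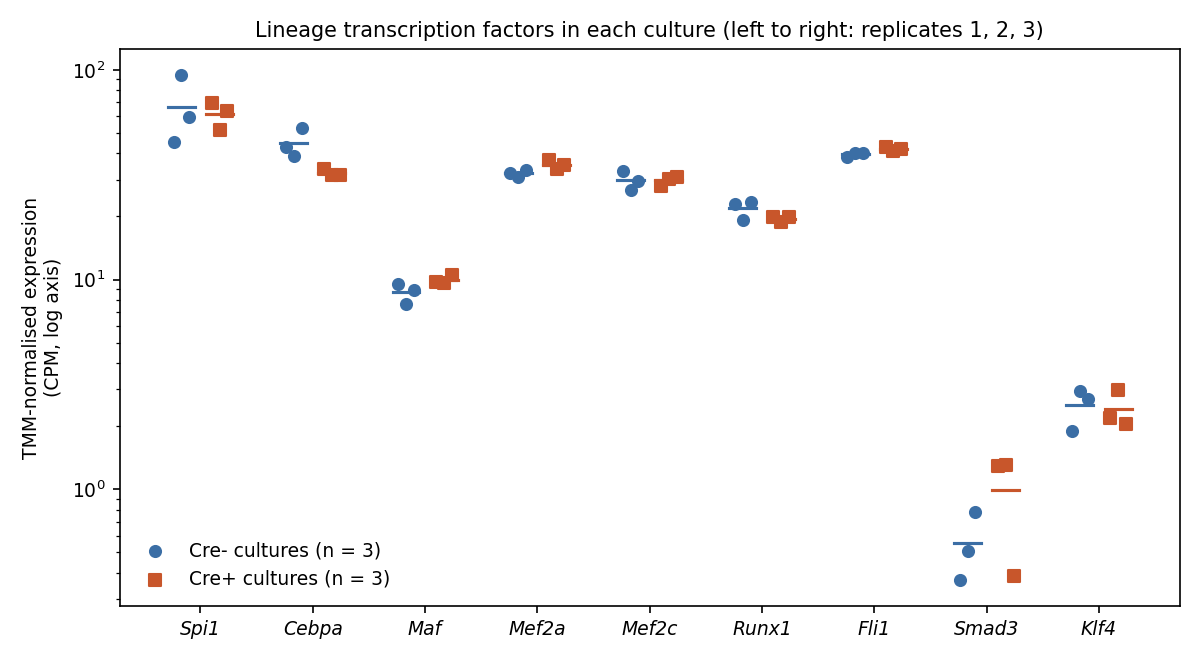
Expression of the 9 factors in each culture, in CPM after TMM scaling on a log axis, with 3 Cre- (circles) and 3 Cre+ (squares) cultures per gene and a bar at each group mean. Cebpa was lower in all 3 Cre+ cultures (31.4 to 33.8 CPM) than in any Cre- culture (39.0 to 52.6 CPM), Spi1 varied widely within the Cre- group, and Smad3 lay near 1 CPM or below.

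Between the groups, 1 of the 8 factors above the filter changed, which was Cebpa. This is 12.5% of the factors tested, against 5.07% of all 11429 genes tested (2.56% lower and 2.50% higher in Cre+). The groups did not overlap for 4 of the 8, Cebpa on the lower and Maf, Mef2a and Fli1 on the higher side, against 24.0% of all genes tested (11.7% lower and 12.3% higher). The median log2 fold change of the 8 was -0.03, and that of all genes tested was 0.00. Smad3 was not tested because it was below the filter.

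**Figure D2:**
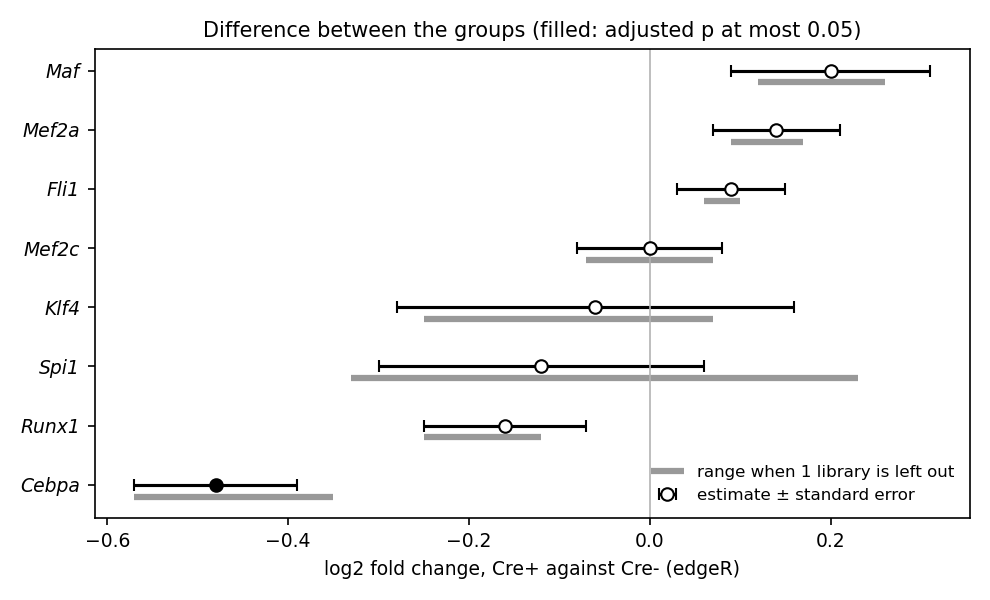
Log2 fold change of Cre+ against Cre- cultures for the 8 factors tested, with the standard error of the edgeR fit (black) and the range of estimates when each of the 6 libraries was left out in turn (grey). Cebpa is the filled point at -0.48, and the grey bars of Spi1, Mef2c and Klf4 lie on both sides of 0.

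Among the factors that specify the lineage, Cebpa encodes C/EBPα, a basic leucine zipper protein that drives myeloid commitment and, with PU.1, selects macrophage enhancers. It is an intronless gene at chr7:35119293-35121928 on the plus strand (GRCm38, as are all gene positions here). Its expression was 43.1, 39.0 and 52.6 CPM in the Cre- cultures and 33.8, 31.5 and 31.4 CPM in the Cre+ cultures. Every Cre+ culture lay below every Cre- culture, and the Cre+ values lay closer together than the Cre- values. The Cre- values spanned 1.35-fold. Of the 3137 genes tested within 2-fold of its mean level, 60 including Cebpa itself, or 1.91%, spanned as much in that group. The Cre+ values spanned 1.08-fold, and 66.1% of the same genes spanned as much. The mean fell from 44.9 ± 6.98 (SD, n = 3) to 32.2 ± 1.39 CPM (SD, n = 3), a difference of -28.3% (log2 fold change -0.48, SE 0.09, edgeR adjusted p = 0.00562). The call was kept in each of the 13 alternative fits, with log2 fold changes from -0.57 to -0.35 and adjusted p from 1.93e-05 to 0.0325. The smallest difference, -0.35, was without Cre- replicate 3, the culture at 52.6 CPM. In these bulk libraries, fewer cells that express a gene and less RNA per cell cannot be told apart. The antisense gene Gm45091 shares 51 exonic bases with Cebpa (1.93% of its exons) but had 158 counts over the 6 libraries against 21859 for Cebpa.

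Spi1 (chr2:91082390-91115756, plus strand), which encodes PU.1, was the most abundant of the 9 per length and, in the Cre- group, the most variable of those tested. Its expression was 45.5, 95.0 and 59.8 CPM in the Cre- cultures and 69.7, 51.4 and 63.7 CPM in the Cre+ cultures. The Cre- values spanned a 2.09-fold range that enclosed all 3 Cre+ values. The difference between groups was smaller than the spread between cultures (log2 fold change -0.12, SE 0.18, edgeR adjusted p = 0.798), and without Cre- replicate 2 it turned to 0.23 (adjusted p = 0.353). Of the 2413 genes tested within 2-fold of its mean level, 5 including Spi1 itself spanned as wide a range in the Cre- group, or 0.207%. In the Cre+ group Spi1 spanned 1.36-fold, and 26 of the same genes, or 1.08%, spanned as much.

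The spread of Spi1 was compared with other genes of the same libraries. Of the other 4 wide genes, Xbp1, a regulator of the unfolded protein response, was at 24.1, 56.0 and 34.2 CPM in the Cre- and 47.0, 31.4 and 42.3 CPM in the Cre+ cultures. Pgls, an enzyme of the pentose phosphate pathway, was at 26.0, 78.8 and 36.2 CPM and at 50.6, 27.8 and 43.7 CPM. Both placed the 6 libraries in the same order as Spi1, whereas Gm43952 and Zrsr1, the remaining wide genes, did not. Among all 11429 genes tested, 21 besides Spi1 had its library order, and 5 of these spanned at least 2-fold over the 6 libraries, as did 595 of all 11429. These genes were singled out after their values were seen, and how many would share an order by chance was not tested. In Cre- replicate 2, where Spi1 was 1.42 times its group mean, the 24 PU.1 target genes described below had a median of 1.02 times theirs, from 0.972 for Tyrobp to 1.20 for Aif1. In the remaining libraries Spi1 was 0.681 (Cre- replicate 1) to 1.13 (Cre+ replicate 1) times its group mean. The target medians there were 0.982 (Cre- replicate 1) to 1.02 (Cre+ replicate 3) times theirs. Whether the targets followed Spi1 was not tested.

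**Figure D3:**
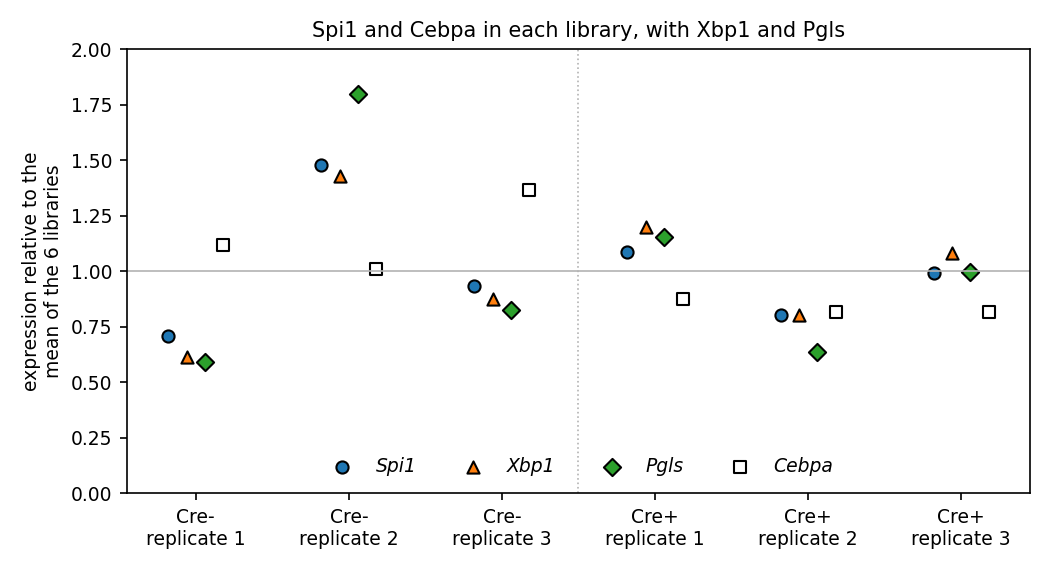
Expression of Spi1, Xbp1, Pgls and Cebpa in each of the 6 libraries, each divided by its mean over the 6, on a linear axis from 0. Spi1, Xbp1 and Pgls share an order with Cre- replicate 2 at the top and Cre- replicate 1 at the bottom, and Cebpa (open squares) does not follow it.

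Runx1 and Fli1 encode a runt-domain factor and an ETS factor of early blood development that remain on in macrophages. Runx1 (chr16:92601466-92826149, minus strand) was at 23.0, 19.3 and 23.4 CPM in the Cre- and 19.9, 18.8 and 19.9 CPM in the Cre+ cultures. One Cre- culture lay inside the Cre+ range, and the difference did not pass the test (log2 fold change -0.16, SE 0.09, edgeR adjusted p = 0.328). Fli1 (chr9:32422204-32542861, minus strand) was at 38.4, 40.1 and 40.0 CPM in the Cre- and 43.0, 41.2 and 42.0 CPM in the Cre+ cultures. It was the steadiest of the factors, with coefficients of variation of 2.45% and 2.12%, and although its groups did not overlap the difference was small (log2 fold change 0.09, SE 0.06, edgeR adjusted p = 0.466).

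Among the factors of the mature state, Maf encodes c-MAF, a basic leucine zipper protein of tissue macrophages. Maf (chr8:115682942-115707794, minus strand) was at 9.52, 7.68 and 8.88 CPM in the Cre- and 9.76, 9.66 and 10.5 CPM in the Cre+ cultures. All 3 Cre+ cultures were above the Cre- cultures, the nearest pair by a narrow margin, and the difference missed the threshold (log2 fold change 0.20, SE 0.11, edgeR adjusted p = 0.383). Klf4, a zinc finger factor of monocytes and macrophages (chr4:55527143-55532466, minus strand), was at 1.89, 2.94 and 2.71 CPM in the Cre- and 2.20, 2.98 and 2.04 CPM in the Cre+ cultures. The groups overlapped over most of their ranges, with a log2 fold change of -0.06 (SE 0.22, edgeR adjusted p = 0.921).

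Mef2a and Mef2c encode MADS-box factors that bind microglial enhancers. Mef2a (chr7:67231163-67372858, minus strand) was at 32.3, 30.8 and 33.3 CPM in the Cre- and 37.2, 33.6 and 35.3 CPM in the Cre+ cultures. The groups were apart but close, and the difference did not pass the test (log2 fold change 0.14, SE 0.07, edgeR adjusted p = 0.284). Lysmd4, on the opposite strand, shares 302 exonic bases with Mef2a (2.06% of its exons) and had 3300 counts over the 6 libraries against 19390 for Mef2a. The library kit does not mark strand, so reads in the shared bases cannot be assigned to either gene by strand. Mef2c (chr13:83504034-83667080, plus strand), the gene with AGGTCA in its printed window, was at 32.9, 26.8 and 29.4 CPM in the Cre- and 27.9, 30.3 and 30.9 CPM in the Cre+ cultures. Its group means were the same to 3 digits, 29.7 ± 3.06 and 29.7 ± 1.57 CPM (SD, n = 3 each), and the fold change was 0.00 with an SE of 0.08 (edgeR adjusted p = 0.999).

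Smad3 (chr9:63646767-63757994, minus strand) encodes the TGF-β signal transducer on which the microglial program of the brain is known to depend. Its counts were 32, 47 and 70 in the Cre- group, against 141, 121 and 39 in the Cre+ group. The Cre+ cultures differed more than 3-fold among themselves (highest over lowest 3.36), and the lowest of them lay inside the Cre- range. It was below the expression filter, and under the alternatives that kept it the difference did not pass the threshold, with a log2 fold change of 0.91 (SE 0.36, edgeR adjusted p = 0.152) without a filter and 0.88 (SE 0.42, adjusted p = 0.245) with a lower one.

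The place of each factor within its gene family was read from FPKM summed over the family. Among Cebpa, Cebpb, Cebpd, Cebpe and Cebpg, Cebpa made up 65.2% in the Cre- cultures (64.1% to 66.3%) and 58.2% in the Cre+ cultures (56.4% to 59.1%), while Cebpg and Cebpb held most of the rest. With Ddit3, the divergent C/EBP gene that encodes CHOP, counted in the sum, Cebpa was second to it, with 35.0% (33.5% to 36.7%) and 26.6% (26.5% to 26.7%). Ddit3, at 38.2, 36.2 and 40.6 CPM in the Cre- and 44.0, 42.0 and 41.7 CPM in the Cre+ cultures, was not called (log2 fold change 0.15, SE 0.06, edgeR adjusted p = 0.215). The sum with Ddit3 was added after the data were seen. Cebpg, at 27.3, 25.0 and 26.4 against 29.3, 26.0 and 21.6 CPM, and Cebpb, at 4.81, 5.36 and 8.66 against 6.52, 5.11 and 6.34 CPM, had log2 fold changes of -0.03 and -0.07 with overlapping groups. Spi1 and Fli1 ranked first and second of 26 ETS genes, with 37.8% and 17.9% of the family in the Cre- and 35.7% and 18.9% in the Cre+ cultures. Runx1 made up 66.6% and 68.7% of the 3 RUNX genes, with Runx2 as most of the remainder.

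The remaining factors did not lead their families. Maf held 3.62% of MAF family FPKM in the Cre- (3.25% to 3.96%) and 4.83% in the Cre+ cultures (4.50% to 5.13%), behind Mafg at 43.9% and 44.9% and Mafk at 24.8% and 22.0%. Mef2a held 29.2% and 32.5% of the MEF2 family, Mef2c 25.1% and 25.6%, and Mef2d, the most abundant, 45.5% and 41.8%. Smad3 held 1.12% and 2.05% of SMAD family FPKM, against 32.3% and 35.4% for Smad2, the other TGF-β receptor substrate. Klf4 held 0.822% and 0.719% of the KLF family, which Klf6, Klf13 and Klf10 dominated. The shares of Cebpa, Maf and Mef2a did not overlap between the groups, and those of the other factors did. Shares of other family members were apart too, such as Mef2d (45.3% to 46.0% in Cre- against 40.5% to 43.9% in Cre+ cultures) and Smad2 (30.8% to 34.6% against 34.7% to 36.6%). Shares exist within these families alone, so no figure over all genes stands beside them. A share moves with every gene in its sum, so it carries no test of its own.

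**Figure D4:**
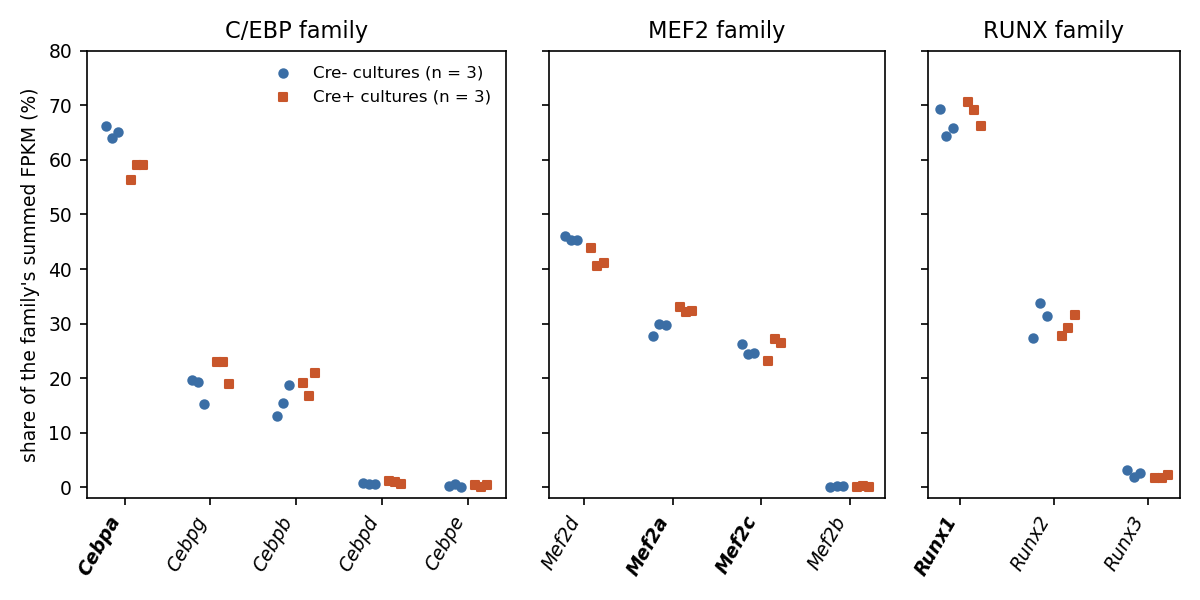
Share of each gene in the summed FPKM of the C/EBP (Ddit3 left out), MEF2 and RUNX families, in percent, for 3 Cre- (circles) and 3 Cre+ (squares) cultures, with the factors described here in bold. Cebpa took 64.1% to 66.3% of the 5 C/EBP genes shown in Cre- and 56.4% to 59.1% in Cre+ cultures, and Runx1 was the largest share of the RUNX family in all 6 cultures.

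Among 106 binding partners, family members and other myeloid factors, 70 were above the filter, 1 rose and 5 fell, or 8.57% called against 5.07% of all genes tested, with a median log2 fold change of 0.01. Mafk, a small MAF protein that pairs with NRF2 and BACH factors, fell from 26.8, 28.4 and 29.2 CPM to 21.1, 20.3 and 22.9 CPM (log2 fold change -0.39, SE 0.08, edgeR adjusted p = 0.00681). Junb, an AP-1 subunit, fell from 69.1, 80.6 and 78.0 CPM to 48.5, 60.6 and 45.0 CPM (log2 fold change -0.56, SE 0.09, edgeR adjusted p = 0.00164). Klf10, a zinc finger repressor induced by TGF-β, rose from 105, 108 and 100 CPM to 125, 122 and 128 CPM (log2 fold change 0.26, SE 0.05, edgeR adjusted p = 0.00560). For these 3 genes no culture of one group lay inside the range of the other, and each call was kept whichever library was left out.

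The remaining calls were weaker. Ski, a corepressor of SMAD proteins, fell by 0.32 in log2 units (adjusted p = 0.0274), Hdac5, a class IIa histone deacetylase that binds MEF2, by 0.38 (adjusted p = 0.0421) and Rxra, a nuclear receptor partner, by 0.29 (adjusted p = 0.0459, all edgeR). Ski and Hdac5 each kept the call in 2 of the 6 fits that left out 1 library, and Rxra in none. Irf8, the interferon regulatory factor that binds DNA with PU.1, was at 198, 193 and 187 CPM in the Cre- and 176, 173 and 170 CPM in the Cre+ cultures. Its groups did not overlap, yet the difference missed the threshold (log2 fold change -0.15, SE 0.04, edgeR adjusted p = 0.0605).

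By group, with 5.07% of all genes tested called, the called genes were 2 of the 14 partners (14.3%, Ski and Hdac5), 1 of 4 other MAF genes (Mafk), 1 of 8 other KLF genes (Klf10), and 2 of 24 other myeloid factors (8.33%, Junb and Rxra). No gene was called among the other 13 ETS genes tested, 3 of which had an unadjusted p under 0.05 (19.1% of all genes tested did) and of which voomWithQualityWeights called 0 (5.00% of all) and DESeq2 1 (7.75% of all). Etv5, the next of the family per length after Spi1 and Fli1, was at 25.7, 26.5 and 23.9 CPM in the Cre- and 28.8, 32.5 and 25.6 CPM in the Cre+ cultures (adjusted p = 0.247). None was called among 3 other C/EBP genes (1 with an unadjusted p under 0.05), Mef2d (0), Cbfb and Runx2 (0) and 5 other SMAD genes (1), and voomWithQualityWeights and DESeq2 called 0 in each. Id2, an inhibitor of basic helix-loop-helix factors, Atf3, a stress-response factor, and Bhlhe41, a clock-related repressor, had the highest CPM of the other factors, with group means of 867 and 845, 625 and 608, and 601 and 630 CPM. Sall1, the factor that marks microglia among macrophages, had 30 to 91 counts per library and was below the filter.

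Genes known to depend on the 9 factors were then counted. Of 85 such genes 62 were above the filter, and 4 rose and 11 fell, or 24.2% called against 5.07% of all genes tested, with a median log2 fold change of -0.02. Some genes stand in more than one list, Cd14, Itgam, Klf10 and Ski among them. Spi1 and Klf4 are themselves listed as dependent on RUNX1 and MEF2, and they count in those lists but not in the 85 and the 62. All lists were compiled with results of these data known, so their counts are a description.

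Genes dependent on C/EBP lay on the lower side. Of 10 such genes 8 passed the filter. These 8 each had a log2 fold change below 0, as had 5648 of all 11429 genes tested, and their median was -0.31. Of the 8, 3 were called (37.5%, against 5.07% of all genes tested). Lyz2, the macrophage lysozyme and the gene with the highest CPM among them, fell from 62200, 60200 and 64700 CPM to 49800, 49200 and 49500 CPM (log2 fold change -0.33, SE 0.03, edgeR adjusted p = 8.95e-06). Chil3, a secreted chitinase-like protein, fell from 9.21, 11.0 and 11.7 CPM to 6.34, 5.88 and 5.71 CPM (log2 fold change -0.83, SE 0.12, edgeR adjusted p = 9.01e-04). Cd14, the lipopolysaccharide co-receptor, fell from 912, 948 and 929 CPM to 820, 722 and 730 CPM (log2 fold change -0.30, SE 0.05, edgeR adjusted p = 0.00173). In each of these 3 called genes all Cre+ cultures were below all Cre- cultures, as in 11.7% of all genes tested. The other 5 did not pass the test, and their log2 fold changes were -0.52 for Il1b, -0.39 for Csf3r, -0.21 for Arg1, -0.08 for Slc11a1 and -0.01 for Il6ra.

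Genes dependent on MAF factors moved in both directions, with 1 of the 6 tested above 0 and 5 below. Of the 6, 4 were called (66.7%, against 5.07% of all genes tested), 1 higher and 3 lower. Of the 6 of 13 above the filter, Mrc1, the mannose receptor, rose from 57.4, 57.6 and 55.1 CPM to 70.8, 77.9 and 86.6 CPM (log2 fold change 0.47, SE 0.07, edgeR adjusted p = 6.69e-04). C1qc, a chain of complement C1q, fell from 95.7, 100 and 102 CPM to 84.6, 79.2 and 74.7 CPM (log2 fold change -0.32, SE 0.06, edgeR adjusted p = 0.00309). Gas6, a bridging ligand for dying cells, fell by 0.49 (adjusted p = 0.0135) and Axl, its receptor, by 0.24 in log2 units (adjusted p = 0.00954, both edgeR), the call for Axl being lost without the expression filter (adjusted p = 0.198) and with edgeR's filterByExpr (adjusted p = 0.0518). C1qa and C1qb were not called, with log2 fold changes of -0.24 and -0.07, and the median of the 6 was -0.24. Cd163, Folr2, F13a1, Lyve1, Il10, Timd4 and Cd5l were below the filter.

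The 24 PU.1 target genes were all above the filter, and their median log2 fold change was 0.00. Of the 24, 5 were called (20.8%, against 5.07% of all genes tested), 2 higher and 3 lower. Tlr4, the lipopolysaccharide receptor, rose from 31.0, 36.0 and 32.7 CPM to 48.9, 40.3 and 43.7 CPM (log2 fold change 0.41, SE 0.08, edgeR adjusted p = 0.00618), whereas Fcgr1, the high-affinity IgG receptor, fell from 18.3, 18.4 and 17.1 CPM to 12.5, 14.1 and 13.4 CPM (log2 fold change -0.43, SE 0.09, edgeR adjusted p = 0.0106). Cd14 fell as given above. Itgam, an integrin chain, rose by 0.18 (adjusted p = 0.0463) and Csf2ra, a chain of the GM-CSF receptor, fell by 0.29 in log2 units (adjusted p = 0.0423, both edgeR). When 1 library was left out, Itgam kept its call in 0 and Csf2ra in 1 of 6 fits, and the Csf2ra difference was -0.16 without Cre- replicate 2, where it was 511 CPM. The targets with the highest CPM were close between the groups, with means of 11100 and 11100 CPM for Ctss, 4000 and 3970 CPM for Cd68 and 2790 and 2860 CPM for Cybb.

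Of 21 genes that respond to TGF-β and SMAD3, 6 were below the filter, P2ry12, Sall1, Siglech, Gpr34 and Ccn2 among them. Among the 15 tested, Pmepa1, a feedback inhibitor of the pathway, fell from a mean of 19.0 ± 1.46 to 12.4 ± 0.659 CPM (SD, n = 3 each), with no overlap between the groups (log2 fold change -0.62, SE 0.09, edgeR adjusted p = 9.01e-04). Klf10 rose and Ski fell as given above, and Olfml3, a matrix protein of microglia, fell (log2 fold change -0.29, edgeR adjusted p = 0.0493) but kept the call in 1 of 6 fits that left out a library. The median of the 15 was -0.02, and 4 were called (26.7%, against 5.07% of all genes tested). Tgfbr1, the type I receptor, had means of 186 and 192 CPM and was not called.

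Genes linked to MEF2, RUNX1 and KLF4 followed. None of 8 MEF2-dependent genes was called by edgeR or voomWithQualityWeights and 1 by DESeq2. Of all genes tested, these tools called 5.07%, 5.0% and 7.75%, in that order. In edgeR 4 of the 8 had an unadjusted p under 0.05, against 19.1% of all genes tested, and their median log2 fold change was 0.07. The nearest to the threshold was Bcl2l1, which counters apoptosis, at 264, 284 and 265 against 307, 288 and 311 CPM (adjusted p = 0.0715). None of 3 RUNX1-dependent genes was called by any of these tools and none had an unadjusted p under 0.05, among them Csf1r, the receptor on which microglia depend, at 487, 486 and 426 against 453, 458 and 476 CPM. Of 6 KLF4-dependent genes Itgam rose and Cd14 fell (33.3% called, both also in the PU.1 list), and Cdkn1a, a cell cycle inhibitor, had means of 104 and 106 CPM.

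**Figure D5:**
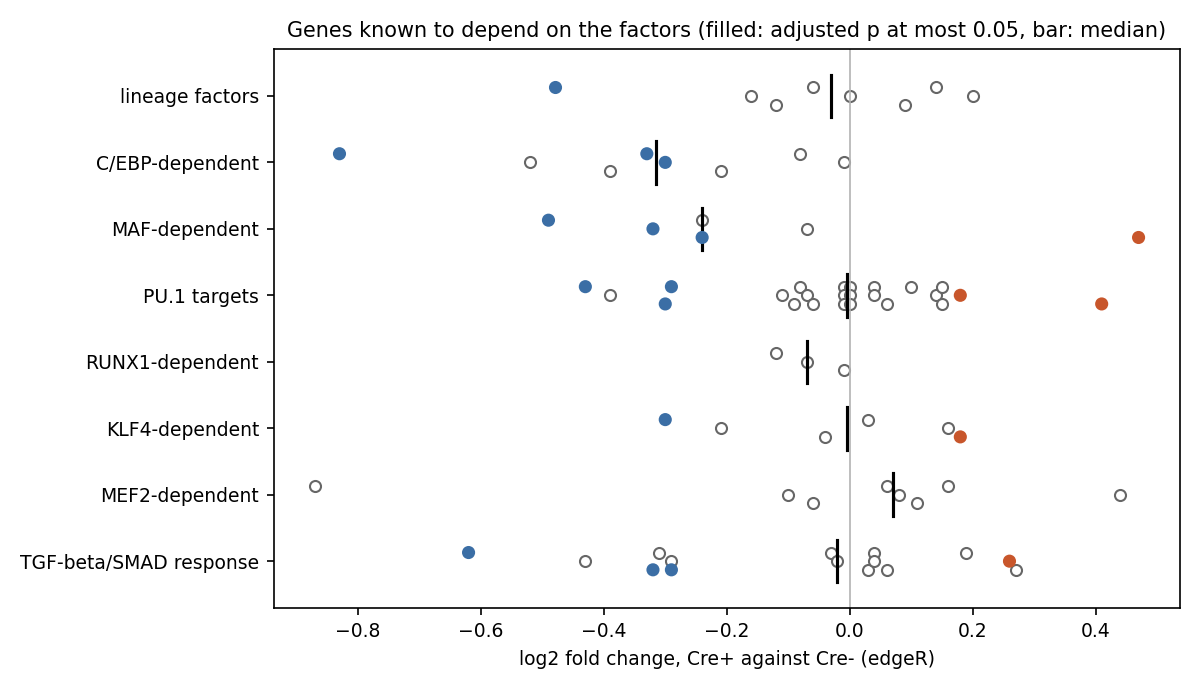
Log2 fold change of Cre+ against Cre- cultures for the 8 factors and for the tested genes of each dependent list, 1 point per gene, with an adjusted p of at most 0.05 filled (orange higher, blue lower) and a bar at the median of each row. The C/EBP-dependent genes all lie below 0 (median -0.31), and the median of the PU.1 targets is 0.00.

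The genes whose profile over the 6 libraries was most like that of Cebpa, by root-mean-square distance of centred log2 CPM, were D130017N08Rik (0.0414), Hook2 (0.0522) and Irs2 (0.0549). Hook2, a protein that links cargo to microtubules, was at 19.0, 16.6 and 21.1 CPM in the Cre- and 15.1, 13.1 and 13.4 CPM in the Cre+ cultures, and fell (log2 fold change -0.44, edgeR adjusted p = 0.0192). Irs2, an insulin receptor substrate, was at 5.21, 5.01 and 6.23 against 4.25, 3.89 and 4.17 CPM and did not pass the test (adjusted p = 0.117), nor did D130017N08Rik at 1.56, 1.49 and 1.95 against 1.27, 1.11 and 1.19 CPM (adjusted p = 0.218).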

How the data were processed

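RNA-seq was performed on 3 Cre- and 3 Cre+ microglial cultures. The labels number the cultures without saying whether they came from separate pups, so p-values measure the spread between these cultures. The authors prepared cDNA with a SMARTer low-input kit, which does not mark strand, aligned paired reads to GRCm38 with STAR (2.7.9a per the submitters' processing notes, which differ in version from the paper) and counted reads per gene with featureCounts (2.0.3). The strand setting is not given in the sources used here. The deposited files hold raw counts per gene, used for every test, and the authors' own CPM and FPKM values per gene, which were read but not tested. No columns of fold changes or p-values were used.

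Gene names and biotypes came from GENCODE M21, which matched 55227 of 55487 gene IDs, and the 260 unmatched held 0.00257% of counts. After removal of 356 rRNA genes and a filter of over 1 CPM in at least 4 libraries, 11429 genes entered the quasi-likelihood test of edgeR (4.0.16, R 4.3.3), with TMM scaling and Benjamini-Hochberg adjustment over all genes tested, and a threshold of 0.05. The code was tested on simulated counts. The deposited length gave FPKM per gene, from counts and TMM library sizes. CPM in the text are TMM-scaled, and markers are per library total. The spread between cultures had a coefficient of variation of 10.0% in the fit over all genes. The relative counting error per library was at most 3.76% for 7 of the factors, but 6.01% to 7.81% for Klf4 and 8.42% to 17.7% for Smad3. Alternatives were limma voomWithQualityWeights (3.58.1), DESeq2 (1.42.0), other scalings and filters, a replicate block and leaving out each library.

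The 9 factors and all gene lists were chosen with earlier results of these data known. Beyond the 9, the text names listed genes that passed the threshold, up to 3 of the highest per list, and the 3 genes most like the called factor. Some listed genes are not reported here by name. Any other gene named was chosen after its values were seen. Promoter sequences are from RefSeq. Exon overlaps are from the exon positions deposited with the counts.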

Additional observations from a re-analysis of the deposited data

How the results depend on the processing

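Over 34 results, 411 alternative values were computed, of which 342 kept their direction and side of the threshold or stayed close, 47 kept their direction but no longer passed the threshold, 11 changed sign and 11 moved by more than the limit set. The number of factors called was 1 under every alternative, Cebpa each time. For all genes, 579 were called, 886 by DESeq2, 1528 with no expression filter, 935 at an adjusted p of at most 0.1, and 326 to 454 when 1 library was left out, the fewest without Cre+ replicate 3 and 347 without Cre- replicate 3. Among partners and family members 3 to 5 were called with 1 library left out, 3 without Cre- replicate 3 and 3 without Cre+ replicate 3, and among dependent genes 11 to 13. The log2 fold changes that changed sign belonged to genes far from the threshold: Spi1, between -0.33 and 0.23 with 1 library left out, 0.23 being without Cre- replicate 2, Klf4 to 0.01 with no expression filter and between -0.25 and 0.07 with 1 library left out, and Mef2c to 0.01 with voomWithQualityWeights, 0.08 with no filter, 0.04 with filterByExpr, 0.00 with library totals and between -0.07 and 0.07 with 1 library left out. Removing the filter shifted the median of all genes by 0.08. The causes of these moves were not tested. The span between the highest and lowest factor was 7.42 log2 units in FPKM, 6.38 in log2 CPM without length and 4.44 in log2(FPKM + 1). With Ddit3 counted in the C/EBP family, an alternative chosen after seeing the data, the share of Cebpa was 35.0% in place of 65.2% in the Cre- and 26.6% in place of 58.2% in the Cre+ cultures.

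Replicate numbers are shared between the groups, but same-numbered cultures did not deviate together (Pearson r over genes -0.00746, -0.0547 and -0.0774), so the numbers give no pairing. With the replicate number as a block, 430 genes were called, 1 of the factors, 4 of the partners and family members and 13 of the dependent genes, and Mef2c was at 0.00.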
